A study of Homo sapiens with 8 samples.

Results

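The expression of 7 genes of cholesterol synthesis and of its control by sterol regulatory element-binding proteins (SREBPs) was examined in A549 cells, an established line from a human lung carcinoma. The genes were given as a list of symbols, HMGCS1, INSIG1, SQLE, IDI1, SREBF1, SREBF2 and DHCR7, and their probes were found through the accession carried by each array spot. All 7 were on the array, among 19056 genes matched in all. The cells had been exposed to EEDS, an ethanol extract of Descurainia sophia seeds, at 1.25, 5 or 20 μg/mL, or to helveticoside, a cardiac glycoside purified from that extract, at 3.75, 15 or 60 nM. Each agent had a vehicle control array of its own. The RNA of 3 cultures was pooled for every array, and each dose had 1 array, so the 8 arrays carried no replicates and a ratio at 1 dose has no test. The sample labels put the exposure at 48 h and the methods of the study at 24 h. Agent and series cannot be told apart, because the arrays of each agent form a series with its own control.

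Cholesterol is built from acetyl units through the mevalonate pathway. HMGCS1, the cytosolic HMG-CoA synthase, acts near its start, IDI1 isomerizes the isoprenoid building block, SQLE oxidizes squalene and DHCR7 carries out a last reduction to cholesterol. SREBF2 and SREBF1 encode the transcription factors SREBP-2 and SREBP-1, which are held in the endoplasmic reticulum by INSIG proteins while sterols are plentiful and are cut free in the Golgi when sterols run low. SREBP-2 chiefly serves the genes of cholesterol synthesis and uptake, SREBP-1 those of fatty acid synthesis, and INSIG1 is itself a target of the factors that it restrains.

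Promoter sequences of HMGCS1, INSIG1 and SREBF2 are shown, since these 3 genes had the highest ratios of the list to a vehicle control. They come from RefSeq on GRCh38.p14 and hold the 250 bases before the outermost start of each gene, written 5′ to 3′ on the strand of the gene. Capitals mark a sterol regulatory element of the letters TCACNCCAC, the E-box CACGTG and the CCAAT box, which reads ATTGG on the other strand. The windows are chr5:43313413-43313662 on the minus strand for HMGCS1, chr7:155297628-155297877 on the plus strand for INSIG1 and chr22:41832855-41833104 on the plus strand for SREBF2.
HMGCS1: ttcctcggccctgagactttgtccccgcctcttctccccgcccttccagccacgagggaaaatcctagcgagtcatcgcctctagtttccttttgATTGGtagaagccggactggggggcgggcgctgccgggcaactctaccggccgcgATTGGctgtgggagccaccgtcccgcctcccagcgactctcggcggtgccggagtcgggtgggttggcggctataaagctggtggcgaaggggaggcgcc
INSIG1: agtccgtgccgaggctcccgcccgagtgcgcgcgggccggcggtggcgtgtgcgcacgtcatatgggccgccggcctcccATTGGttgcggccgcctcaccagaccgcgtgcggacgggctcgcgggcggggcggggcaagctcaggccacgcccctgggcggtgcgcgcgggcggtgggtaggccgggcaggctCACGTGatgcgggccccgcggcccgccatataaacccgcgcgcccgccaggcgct
SREBF2: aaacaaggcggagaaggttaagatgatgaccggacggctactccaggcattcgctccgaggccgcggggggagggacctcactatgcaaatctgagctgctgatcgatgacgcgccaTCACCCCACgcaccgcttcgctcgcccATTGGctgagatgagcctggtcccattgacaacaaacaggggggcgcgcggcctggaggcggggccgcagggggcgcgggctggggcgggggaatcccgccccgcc
The SREBF2 window held the sterol regulatory element TCACCCCAC, which began 133 bases before the gene start, and a CCAAT box at 106 bases. The INSIG1 window held the E-box at 55 bases and a CCAAT box at 170 bases. The HMGCS1 window held CCAAT boxes at 155 and 100 bases and neither of the other motifs. Over 35116 windows of 250 bases searched on both strands, 0.883% held the sterol regulatory element, 6.34% the E-box and 32% the CCAAT box. A match is a description of letters in this window and does not show binding. None of the SREBF1, IDI1 and DHCR7 windows held TCACNCCAC, and SQLE was not matched in the promoter table.

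Intensities are given as log2 of the processed signal after quantile normalization over the 8 arrays, and a ratio is the log2 difference between a treated array and the vehicle control of its own series. Each of the 7 genes was well above background on all 8 arrays, with 1 spot per array for its probe. Probe spots had a median signal of 182 to 214 on the EEDS arrays and 223 to 278 on the helveticoside arrays, over a median local background of 27 to 34. Probes with 5 or more spots varied by a median SD of 0.07 between their spots, which covers spot noise but not the spread between cultures. Between the vehicle controls, the log2 difference had an SD of 0.65 over all genes and of 0.48 over the 11494 genes that every array measured well above its background, and 10.5% of genes differed more than 2-fold. The 7 genes were 0.04 to 0.44 lower on the helveticoside control than on the EEDS control. In cultured cells measured in bulk, fewer cells of a kind and less RNA per cell cannot be told apart.

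**Figure D1:**
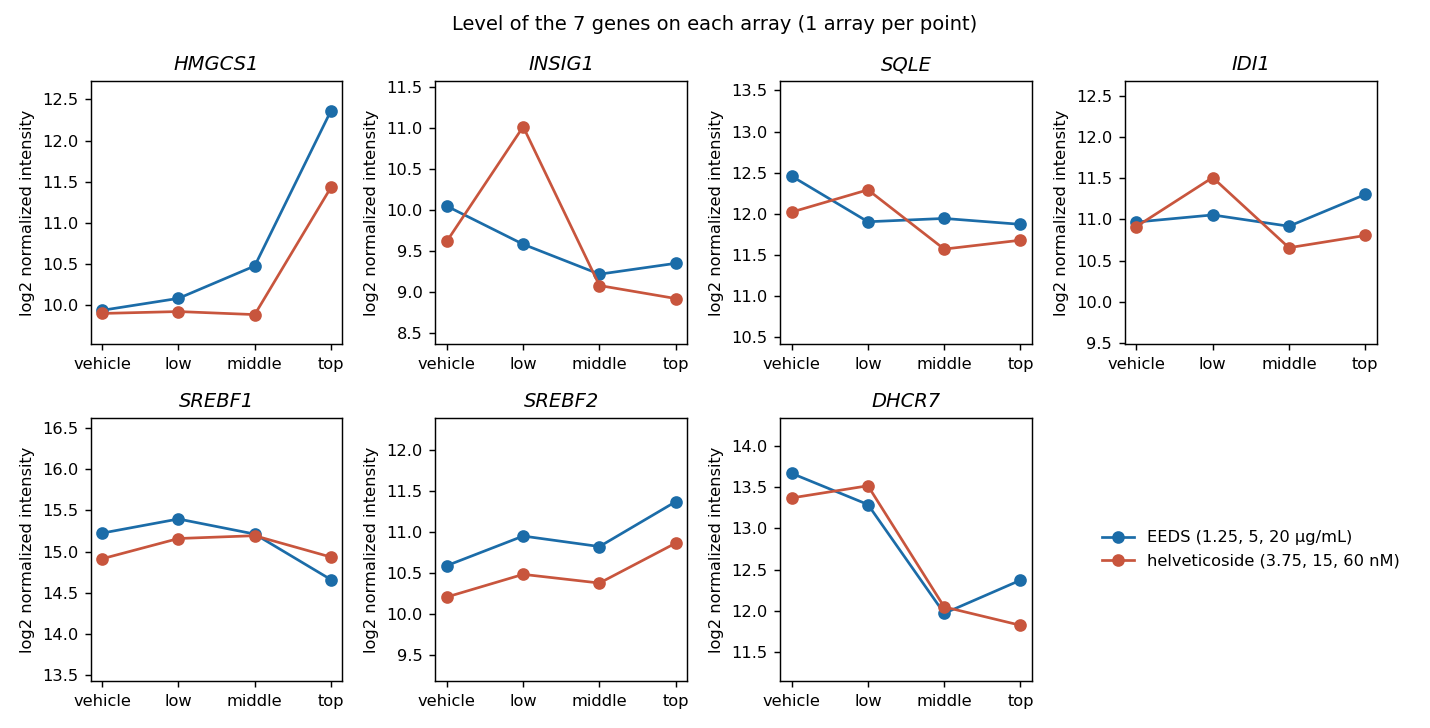
Log2 intensity (y axis) of each of the 7 genes on the vehicle control and at the low, middle and top dose (x axis) of EEDS and of helveticoside, 1 array per point and no error bars because there were no replicates. HMGCS1 stood highest at the top dose of both agents, DHCR7 was lower from the middle doses on, and INSIG1 was highest at 3.75 nM helveticoside.

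HMGCS1 was the member with the highest ratio at the top dose of both agents. Its log2 intensity was 9.94 on the EEDS control and 10.08, 10.48 and 12.36 at 1.25, 5 and 20 μg/mL. In the helveticoside series it was 9.90 on the control and 9.92, 9.88 and 11.43 at 3.75, 15 and 60 nM. Only the top-dose arrays thus stood far above their control. The ratio was 2.43 at 20 μg/mL EEDS, or 5.38-fold, and 1.53 at 60 nM helveticoside, or 2.90-fold. Most of it arose in the step from the middle to the top dose, which was 3.70-fold for EEDS and 2.92-fold for helveticoside. Of all genes, 1.92% had a higher ratio at 20 μg/mL EEDS and 4.90% at 60 nM helveticoside.

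DHCR7, which reduces 7-dehydrocholesterol to cholesterol, was the member with the lowest ratios. Its log2 intensity was 13.67 on the EEDS control and 13.29, 11.97 and 12.37 at the rising doses. In the helveticoside series it was 13.37 on the control and 13.52, 12.05 and 11.82. The control and the lowest dose were thus high, and the middle and top doses low, in both series. At 5 μg/mL EEDS the ratio was -1.70, which left 30.7% of the control signal, and at 20 μg/mL it was -1.30. At 15 nM helveticoside the ratio was -1.32, and at 60 nM it was -1.55, which left 34.2%. The lowest ratio was therefore at the middle dose for EEDS and at the top dose for helveticoside.

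SQLE, the squalene epoxidase and a flux-controlling enzyme of the later pathway, had a log2 intensity of 12.46 on the EEDS control and of 11.90, 11.94 and 11.87 at the rising doses. With helveticoside it was 12.02 on the control and 12.29, 11.57 and 11.68. Every EEDS array lay below its control by about the same amount, with ratios of -0.55, -0.51 and -0.59, whereas the helveticoside array of 3.75 nM lay above its control. The helveticoside ratios were 0.27, -0.45 and -0.34.

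IDI1, the isopentenyl diphosphate isomerase, had a log2 intensity of 10.97 on the EEDS control and of 11.05, 10.92 and 11.30 at the rising doses. With helveticoside it was 10.91 on the control and 11.51, 10.66 and 10.81. The array of 3.75 nM was the highest of all 8, at a ratio of 0.60, or 1.51-fold, and the remaining ratios lay between -0.26 and 0.34. Its paralog IDI2 was not well above background on any array.

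INSIG1, the sterol-responsive retention factor for SREBPs, was the member whose lowest-dose values differed most between the agents. Its log2 intensity was 10.05 on the EEDS control and 9.58, 9.22 and 9.35 at the rising doses. In the helveticoside series it was 9.62 on the control and 11.01, 9.08 and 8.92. The array of 3.75 nM helveticoside stood alone above all others, and every other treated array lay below its control. The ratio at 3.75 nM was 1.39, or 2.62-fold, and 1.94% of all genes had a higher ratio there. The EEDS ratios were -0.46, -0.83 and -0.69, and those at 15 and 60 nM helveticoside were -0.54 and -0.70. INSIG2, the paralog with the same retention role, had EEDS ratios of 0.92, 0.82 and 0.02 and helveticoside ratios of 0.50, 0.81 and 0.09, so its highest array of each series was one on which INSIG1 lay below its control.

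SREBF2 was above its control at each dose of both agents. Its log2 intensity was 10.59 on the EEDS control and 10.95, 10.82 and 11.37 at the rising doses. For helveticoside it was 10.21 on the control and 10.49, 10.38 and 10.87. The ratio was 0.78 at 20 μg/mL EEDS, or 1.71-fold, and 0.66 at 60 nM helveticoside, or 1.58-fold, with smaller ratios of 0.17 to 0.36 at the lower doses. Set against the EEDS control instead, the helveticoside ratios of SREBF2 were -0.11, -0.21 and 0.27, so at the lower doses of helveticoside its direction depended on the control.

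SREBF1 had a log2 intensity of 15.23 on the EEDS control and of 15.40, 15.21 and 14.66 at the rising doses. For helveticoside it was 14.91 on the control and 15.16, 15.19 and 14.93. The array of 20 μg/mL EEDS was the lowest of the 8, at a ratio of -0.57. The helveticoside ratios were 0.25, 0.28 and 0.02. A second, dimmer SREBF1 probe had ratios of -0.31, -0.06 and -0.20 for EEDS and of 0.08, 0.02 and -0.12 for helveticoside, and it therefore differed in sign from the first at 1.25 μg/mL EEDS and at 60 nM helveticoside. Both probes were below the control at 20 μg/mL EEDS.

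Counted over the list, 1 of 7 members was more than 2-fold higher at 20 μg/mL EEDS (HMGCS1), beside 13.4% of all genes, and 1 was more than 2-fold lower (DHCR7), beside 14.6%. At 60 nM helveticoside the same counts were 1 (HMGCS1) beside 10.9% and 1 (DHCR7) beside 12.9%. DHCR7 was also the member more than 2-fold lower at 5 μg/mL EEDS, beside 8.53% of all genes, and at 15 nM helveticoside, beside 8.11%. With so few members, these shares are near the background. At 1.25 μg/mL EEDS no member passed 2-fold, beside 4.21% of all genes higher and 3.71% lower. No member was more than 2-fold higher at 5 μg/mL EEDS or at 15 nM helveticoside, beside 7.35% and 7.13% of all genes. At 3.75 nM helveticoside INSIG1 was the member more than 2-fold higher, beside 3.4% of all genes, and none was more than 2-fold lower, beside 4.34%. All 7 members were above the control there, by a median of 0.27, while 54.5% of all genes were. Set against the EEDS control instead, INSIG1 at 0.97 and IDI1 at 0.54 were above it at 3.75 nM, and the ratios of the other 5 lay between -0.17 and -0.02.

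Dose dependence was tested with limma over the 8 arrays, with a level and a slope per dose step for each agent, where a step is the move from the control to the low dose or from a dose to the next. With 1 array per dose, the SE, p and intervals rest on the scatter of the arrays about these straight lines, pooled over both agents. They do not measure the spread between cultures, and a response that bends away from a line widens them. None of the 7 members passed an adjusted p of 0.05 for either agent, while 7.27% of all genes rose and 7.9% fell for EEDS, and 5.48% rose and 5.83% fell for helveticoside. The HMGCS1 slope was 0.77 ± 0.24 (SE) log2 units per step for EEDS, with a limma p of 0.0212 and an adjusted p of 0.0888, and 0.46 ± 0.24 for helveticoside, with an adjusted p of 0.282. These slopes rested on the top dose, since without the 20 μg/mL array the EEDS slope was 0.27 and without the 60 nM array the helveticoside slope was -0.0070. Without the control array they were 1.14 and 0.76. The DHCR7 slope was -0.52 ± 0.19 for EEDS, with a limma adjusted p of 0.122, and -0.61 ± 0.19 for helveticoside, with an adjusted p of 0.0995. Without the 20 μg/mL array the EEDS slope of DHCR7 was -0.85. SREBF2 had slopes of 0.22 ± 0.08 and 0.19 ± 0.08, with limma adjusted p of 0.122 and 0.194, and without the top-dose array they were 0.12 and 0.085. The slopes of INSIG1, SQLE, IDI1 and SREBF1 had limma adjusted p between 0.208 and 0.994 over both agents. The HMGCS1 slope for EEDS passed under 6 of the processing alternatives, at limma adjusted p of 0.0113 to 0.0394, and its slope for helveticoside passed when the dose itself replaced the dose step, at 0.0302. The DHCR7 slope for helveticoside passed under 3 alternatives, at 0.0339 to 0.0493, and its slope for EEDS passed under 1, at 0.0464.

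**Figure D2:**
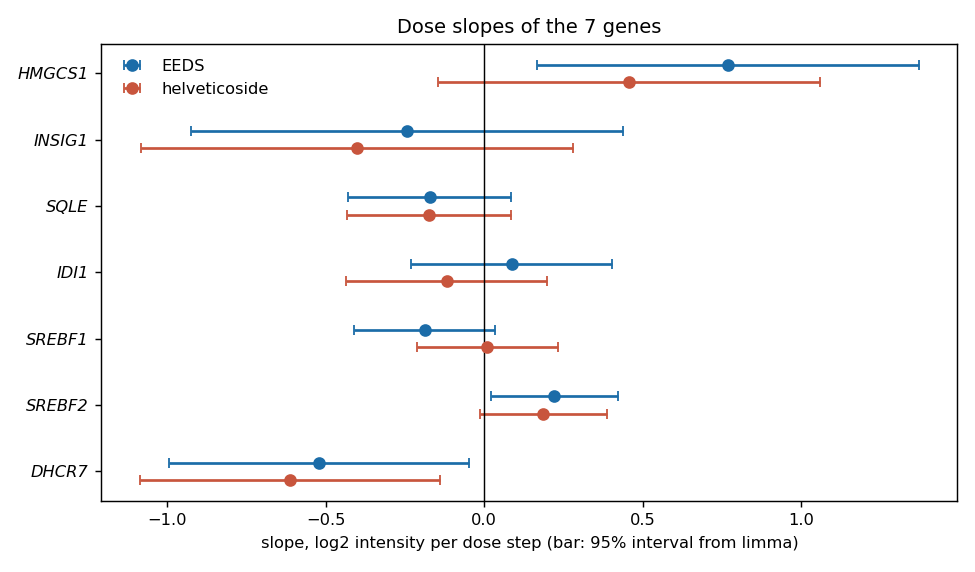
Dose slope of each of the 7 genes in log2 intensity per dose step (x axis) for EEDS and helveticoside, with points for the limma estimate over 8 arrays and bars for its 95% interval. The bars reflect scatter about straight lines and not the spread between replicates. The intervals of the agents overlap for every gene, and the points run from -0.61 for DHCR7 with helveticoside to 0.77 for HMGCS1 with EEDS.

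The extract and the glycoside were compared through the difference of their slopes, EEDS minus helveticoside, in the same fit. No member was called, at limma adjusted p of 1 for each, and limma called 0 of 19046 genes (0.0%). At an unadjusted limma p under 0.05 were 526 genes (2.76%), with none of the members among them. The error here is the scatter about straight lines, so a bend shared by both agents widens it. The absence of a call therefore does not show that the agents acted alike. The intervals were wide. The HMGCS1 difference was 0.31 per step with a 95% interval from -0.54 to 1.16, and that of INSIG1 was 0.16 from -0.81 to 1.12. For DHCR7 it was 0.09 from -0.58 to 0.76, and for SREBF2 it was 0.03 from -0.25 to 0.32. The doses of the agents are in different units, so these intervals compare steps and not matched concentrations.

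**Figure D3:**
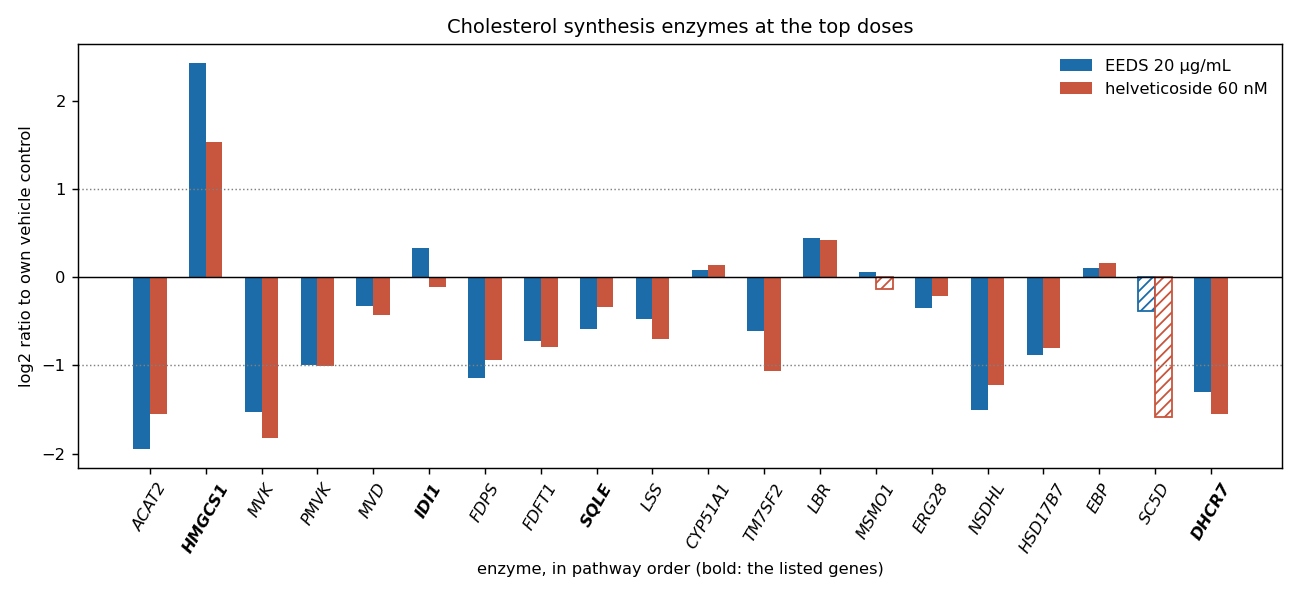
Log2 ratio to the own vehicle control (y axis) of cholesterol synthesis enzymes in pathway order (x axis, bold for the listed genes) at 20 μg/mL EEDS and 60 nM helveticoside, 1 array per bar, with dotted lines at 2-fold and hatched bars where either of the arrays compared was dim against its background. HMGCS1 is the bar above 2-fold, at 2.43 and 1.53, and ACAT2 with EEDS is the lowest bar shown, at -1.95.

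Among the 18 other enzymes of the pathway, most were below the control at the top doses. At 20 μg/mL EEDS, 13 of 18 were lower and 5 higher, while 45.3% of all genes were lower, and the median ratio was -0.54 against 0.02 for all genes. At 60 nM helveticoside, 14 were lower and 4 higher, while 50.9% of all genes were lower, and the median was -0.80 against -0.00. More than 2-fold lower were 5 of 18 with EEDS, beside 14.6% of all genes, and 7 of 18 with helveticoside, beside 12.9%. None was more than 2-fold higher, beside 13.4% and 10.9% of all genes. The 7 include the sterol desaturase SC5D, whose treated array was not well above background. Set against the control of the other series, 10 of 18 were lower with EEDS and 17 of 18 with helveticoside. The median of all genes was then -0.02 at 20 μg/mL EEDS and 0.03 at 60 nM helveticoside, so these counts depended on the control array.

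The falling trends among these enzymes lay in the early pathway and at NSDHL, a sterol dehydrogenase. ACAT2, the cytosolic thiolase that supplies HMGCS1 with its substrate, fell with both agents, to ratios of -1.95 at 20 μg/mL and -1.55 at 60 nM, at limma adjusted p of 0.0228 and 0.0360. NSDHL fell likewise, to -1.51 and -1.23, at 0.0324 and 0.0430. Mevalonate kinase, MVK, fell with helveticoside to -1.82, at an adjusted p of 0.0435 by limma, and had a ratio of -1.53 with EEDS at 0.0760. FDPS, which makes farnesyl diphosphate after IDI1, fell with EEDS to -1.15, at a limma adjusted p of 0.0409, and had a ratio of -0.94 with helveticoside at 0.0657. Thus 3 of 18 fell and none rose for each agent, while 7.9% of all genes fell for EEDS and 5.83% for helveticoside. These calls rested on single arrays, since without the EEDS control or the 20 μg/mL array limma called 0 genes for EEDS, in this and every other list, and without the 15 or the 60 nM array 0 for helveticoside. PMVK and TM7SF2 were also more than 2-fold lower at 60 nM, with ratios of -1.01 and -1.06.

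Of 13 genes that process SREBPs or control them, 10 were above the control at the top dose of each agent. Of all genes, 54.5% were above it for EEDS and 49.0% for helveticoside. By trend, 5 of 13 rose for each agent while none fell, beside 7.27% of all genes rising for EEDS and 5.48% for helveticoside. SPRING1, which aids the protease that cleaves SREBPs, rose to ratios of 0.97 at 20 μg/mL EEDS and 1.35 at 60 nM helveticoside, at limma adjusted p of 0.0329 and 0.0245. The ubiquitin ligase RNF139, tied to INSIG proteins, rose to 1.34 with EEDS and to 0.91 with helveticoside. FBXW7, the ligase component that marks nuclear SREBPs for degradation, rose with EEDS to 2.10, at a limma adjusted p of 0.0334, and had a ratio of 1.17 with helveticoside at 0.123. FAF2 rose with helveticoside to 1.36, at a limma adjusted p of 0.0393, and had a ratio of 1.17 with EEDS at 0.0510. The EEDS trend of RNF139 passed limma in 6 of the 8 fits that left out an array. The other EEDS trends named here, of FBXW7 and SPRING1, passed in 3 and 1 of these fits. With helveticoside, SPRING1 passed in 3, RNF139 in 1 and FAF2 in 1. The list had a median of 0.55 for EEDS and of 0.48 for helveticoside at the top doses, against 0.02 and -0.00 for all genes. Its ratios ran from -0.94 to 2.10 for EEDS and from -0.81 to 1.36 for helveticoside.

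Of 12 genes of sterol uptake and trafficking, 3 rose and 2 fell for EEDS, beside 7.27% and 7.9% of all genes, and 2 rose and 1 fell for helveticoside, beside 5.48% and 5.83%. With 12 genes, a count of 1 is near those shares. NPC1, which carries cholesterol out of lysosomes, rose 2.83-fold at 20 μg/mL EEDS and 4.02-fold at 60 nM helveticoside, at limma adjusted p of 0.0284 and 0.0227. MYLIP, a ubiquitin ligase that limits lipoprotein uptake, rose to 1.73 and 1.20. NPC1L1, a sterol importer, rose with EEDS to 1.65 and had a ratio of 1.13 with helveticoside at a limma adjusted p of 0.0516, while its second probe had ratios of 0.29 and 0.08. TMEM97 fell to -1.42 and -1.51, and the acyl-CoA synthetase ACSL3 fell with EEDS to -0.92.

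In the fatty acid branch served by SREBP-1, 11 of 14 genes were below the control at the top dose of each agent, with medians of -0.44 and -0.39, while 45.3% of all genes were lower for EEDS and 50.9% for helveticoside. None of the 14 passed the trend test. Relative to the median of all genes after scaling to the 75th percentile, 9 of 14 were lower with each agent. FASN, the fatty acid synthase, had a ratio of -1.34 at 20 μg/mL EEDS, ACLY one of -1.21 and FADS2 one of -1.07. PNPLA3 had a ratio of -1.04 at 60 nM helveticoside. SREBF1 itself was below its control at 20 μg/mL EEDS and close to it at 60 nM helveticoside.

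Of 11 genes of sterol efflux and of the liver X receptors (LXRs), 1 rose and 2 fell for EEDS, beside 7.27% and 7.9% of all genes, and 1 rose and 1 fell for helveticoside, beside 5.48% and 5.83%, so the counts of 1 are near the shares over all genes. APOE, a protein of the lipoproteins that take up exported cholesterol, rose to ratios of 1.44 and 1.17, at limma adjusted p of 0.0144 and 0.0211. NR1H3, which encodes LXR alpha, fell with EEDS to -1.88, at 0.0445. OSBPL5, a lipid transfer protein, fell to -2.07 and -1.71, while its second, dim probe had ratios of -0.35 and 0.03. The exporters ABCG1 and ABCA1 had ratios of 2.22 and 1.17 at 60 nM helveticoside with no trend called. RXRB had a ratio of 1.02 at 20 μg/mL EEDS, and OSBP one of 1.02 at 60 nM helveticoside.

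Of 10 genes of the isoprenoid branch, which draws on the product of FDPS, 2 rose and none fell for each agent, while 7.27% of all genes rose for EEDS and 5.48% for helveticoside. FNTA, a subunit shared by protein prenyltransferases, rose to ratios of 1.37 and 1.29, and COQ2, of coenzyme Q synthesis, rose to 0.96 and 0.92. PGGT1B had a ratio of 1.11 at 20 μg/mL EEDS, and FNTB one of -1.02 at 60 nM helveticoside.

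Likeness of pattern was described by Pearson's r over the 6 ratios, which share a control within each series, among 11408 genes well above background on all arrays. MEAF6, PUF60 and RAP1B were most like HMGCS1, at 0.998, 0.997 and 0.997, but with smaller ratios of 0.74, 0.70 and 0.85 at 20 μg/mL EEDS. WDFY4 was most like INSIG1, at 0.996, but with ratios of 0.01 at 20 μg/mL EEDS and -0.06 at 60 nM helveticoside. Those of INSIG1 were -0.69 and -0.70. DTX2, BASP1-AS1 and SSRP1 were most like SREBF1, at 0.997, 0.995 and 0.994. Within the list, INSIG1 and SQLE had an r of 0.947, INSIG1 and DHCR7 one of 0.851, and HMGCS1 had an r of 0.942 with SREBF2 and of -0.923 with SREBF1. With 6 ratios and so many genes, values this high are a description.

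Markers of the cell type were checked on the same arrays. All 6 epithelial markers (KRT7, KRT8, KRT18, KRT19, CDH1 and EPCAM) were well above background on all 8 arrays. Of the 3 surfactant genes that mark alveolar type II cells, SFTPC was so on some arrays and the other 2 on none. Of the markers of other cells, the leukocyte gene PTPRC and the endothelial gene CDH5 were well above background on all arrays, at log2 intensities of 5.95 to 7.27 and of 6.74 to 7.51, and the endothelial genes PECAM1 and VWF and the erythroid gene HBB were on none. At the top doses the epithelial markers had a median ratio of -0.68 with EEDS and -0.65 with helveticoside. Below the control were 4 and 5 of the 6, beside 45.3% and 50.9% of all genes, and KRT7 was highest, at 0.62 and 0.53. Limma called a falling trend for 4 of the 6 with EEDS, beside 7.9% of all genes. With helveticoside it called 3, beside 5.83%. The part of the epithelial markers in the ratios of the cholesterol genes was not tested.

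**Figure D4:**
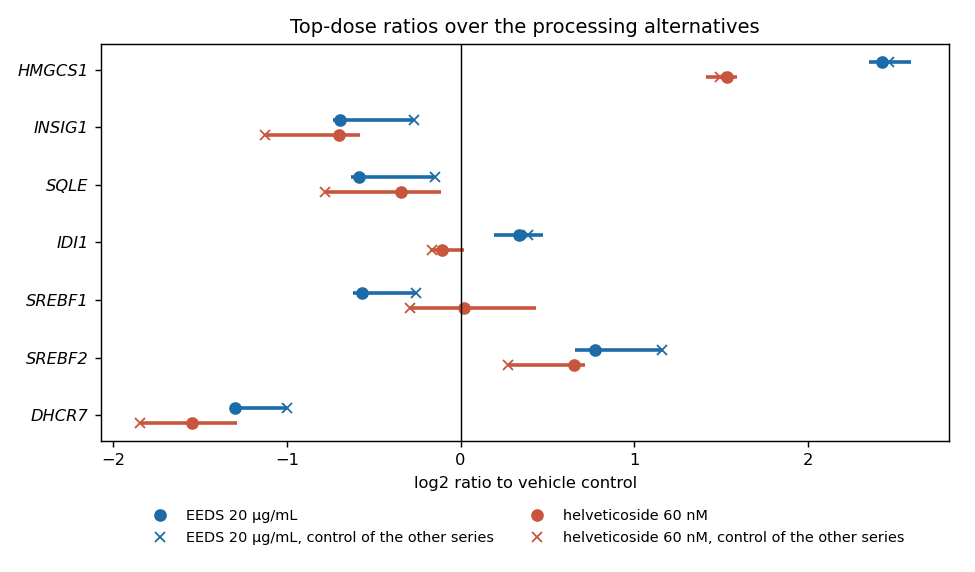
Log2 ratio to the vehicle control (x axis) of the 7 genes at 20 μg/mL EEDS and 60 nM helveticoside, with dots for the reported value, lines for the range over the processing alternatives and crosses for the value set against the control of the other series. HMGCS1 stays between 2.35 and 2.59 for EEDS and between 1.42 and 1.59 for helveticoside, and the helveticoside lines of SREBF1 and IDI1 cross 0.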

How the data were processed

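RNA of A549 cells was measured on 8 one-color Agilent whole human genome arrays. For each array the authors deposited the intensity of every spot from Agilent's Feature Extraction software, as the median signal, the local background and a processed signal with the background already subtracted, together with outlier, saturation and well-above-background calls. The version of the software and its date or slide were not given in the sources used here. A further table that the authors deposited holds processed intensity on a linear scale, and 2427 of its values were blank.

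The processed signal was taken without control spots and outlier spots (246 to 331 per array), averaged per probe, quantile-normalized across the 8 arrays and log2-transformed. No spot was saturated. Of 34105 probes used, 24812 were matched through their accession to 1 of 19056 gene symbols of GRCh38.p14, and a gene with several probes was read from the brightest by mean signal. A gene entered the fit when its median signal reached 1.4 times the local background on at least 1 array of each series, which kept 19046 genes. Samples were grouped by agent and dose from the labels. Each treated array was compared with its series' vehicle control and counted past 2-fold. Slopes over the dose steps 0 to 3 and their difference were fitted with limma 3.58.1 (R 4.3.3, statmod 1.5.0, trend and robust estimation) over all genes with 4 residual degrees of freedom, tested two-sided and adjusted by Benjamini-Hochberg at 0.05. The fit was tested on simulated data. Other values came from Python 3.11.15, numpy 2.4.6 and pandas 2.3.3. The number of arrays limits the precision, and cultures pooled before hybridization leave no estimate of their spread.

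The members, the gene lists and the tests were chosen with earlier results of these data known. The genes named are the 7 members and their paralogs, list genes past 2-fold at a top dose and well above background on both arrays or with a called trend, and the 3 genes most like HMGCS1, INSIG1 and SREBF1. Some genes that this rule names, and some markers, are not reported here, and the counts over the lists include them. Alternatives covered the background correction, the normalization, the deposited table, the probe of a gene, the filter, the control array, the fold limit, the variance estimate, the dose scale, each series alone and each array left out.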

Additional observations from a re-analysis of the deposited data

How the results depend on the processing

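No paired analysis was possible because each group had 1 array. With a 1.5-fold limit, 2 members were higher and 3 lower at 20 μg/mL EEDS, and 2 higher and 2 lower at 60 nM helveticoside. Of the 18 other enzymes, 9 and 11 passed. With no share over all genes beside them, these counts are not read as a result. Against the other series' control, 2 members were more than 2-fold higher and 0 lower with EEDS, beside 33.4% of all genes past 2-fold. With helveticoside HMGCS1 was higher and 2 were lower, beside 30.8%. The signal as scanned, normexp with an offset of 50 and the deposited table each left 4 of the 18 enzymes past 2-fold at 60 nM, beside 13.4%, 13.6% and 12.0% of all genes. The processing used above gave 7, beside 23.7%, so the share of all genes dropped too. The cause was not tested. The members with a called EEDS trend numbered 1 with the signal as scanned, normexp, scaling to the 75th percentile, the deposited table or the dose over the top dose (HMGCS1 in each), and 2 with the fit limited to the 11494 genes that every array measured well above its background (HMGCS1 and DHCR7). Of all genes, 1385 rose and 1504 fell of 19046 for EEDS with the processing used above. With the signal as scanned 1661 and 1881 did so, with normexp 1675 and 1896, and with scaling 1800 and 2181. The deposited table gave 1976 and 2628 of 18203, that filter 1726 and 1874 of 11494, and the dose over the top dose 1104 and 1086. For helveticoside the number was 1 with the scanned signal, normexp or that filter (DHCR7) and with the dose over the top dose (HMGCS1).

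Leaving out each array in turn gave 0 called members. Without the EEDS control or the 20 μg/mL array, limma called 0 genes for EEDS, with 2216 and 2028 rising at an unadjusted p under 0.05. Without the 15 or the 60 nM array it called 0 for helveticoside, with 2543 and 1518. Fitted alone, each series gave 0 calls. The falling trends of the other enzymes, 3 each for EEDS and helveticoside, numbered 5 and 4 with the scanned signal or the deposited table. With normexp or the filter above they were 5 and 5, without trend and robust estimation 3 and 4, and with scaling 2 and 2. They were 0 with the dose over the top dose or each series alone, and 0 to 3 and 0 to 2 without 1 array. Where a count passed 3, more of all genes fell too, except for helveticoside with the deposited table. No slope that turned sign was called in the setting where it did so. Their leave-one-out ranges were -0.0070 to 0.76 for HMGCS1 and -0.11 to 0.14 for SREBF1 with helveticoside, -0.025 to 0.12 for IDI1 with EEDS, and, for the difference of the slopes, -0.19 to 0.77 for HMGCS1, -0.011 to 0.80 for INSIG1, -0.082 to 0.16 for SQLE, -0.070 to 0.14 for SREBF2 and -0.24 to 0.33 for DHCR7. The SQLE difference was -0.026 from the deposited table, and the SREBF1 slope for helveticoside was -0.016 with the mean of all probes and -0.12 with the dose over the top dose.

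Scaling to the 75th percentile moved the median of all genes to -0.36 at 20 μg/mL EEDS and -0.18 at 60 nM helveticoside. Relative to it, HMGCS1 was at 2.95 and 1.77, SREBF2 at 1.26 and 0.90, DHCR7 at -0.65 and -1.11, INSIG1 at -0.36 and -0.54, SQLE at 0.01 and 0.07, IDI1 at 0.83 and 0.20 and SREBF1 at -0.02 and 0.61, so SQLE and, with helveticoside, IDI1 changed sign. At 3.75 nM HMGCS1 was at -0.12 relative to a median of 0.14.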
